A study of Mus musculus with 4 samples.

Results

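Chondrocytes are the cells of cartilage. They secrete a matrix of type II, IX and XI collagens and of aggrecan, a large proteoglycan that is anchored to hyaluronan by link protein and binds water through its sulfated side chains, and the transcription factor Sox9 is required for this program. In the growth plate, chondrocytes proliferate, enlarge into hypertrophic cells that make type X collagen and Indian hedgehog, and are replaced by bone. Osteoblasts and fibroblasts make type I collagen instead.

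The cells described here were 166 cells that met a rule for chondrocyte-like cells, among 9795 cells of 4 single-cell RNA-seq libraries. The members were chosen by their own UMI counts (UMIs are single captured RNA molecules): at least 2 UMIs of *Acan* (aggrecan), at least 2 UMIs each of 2 or more of *Col2a1*, *Col9a1*, *Hapln1*, *Matn3*, *Chad* and *Lect1*, no UMI of the leukocyte gene *Ptprc*, and less than 1% of UMIs each from *Prg4* (lubricin) and from the osteocalcin genes *Bglap* and *Bglap2*. The levels of these genes in the members are therefore descriptions of the choice. All mice carried Cxcl12-iCreER, in which *Cxcl12* regulatory sequence drives a tamoxifen-inducible recombinase, and a R26R(tdTomato/+) reporter, and were given tamoxifen 7 days before ablation of the femoral marrow. The tdTomato+ cells were sorted 7 days after ablation from ablated femurs (ABL) or unoperated contralateral femurs (CONT), with 1 library per condition in each of 2 replicates. The libraries are written CONT1 and ABL1 (Chromium v2 chemistry) and CONT2 and ABL2 (Chromium v3), and 4 values given without names follow the order CONT1, ABL1, CONT2, ABL2. The study describes taking off the distal growth plate and the proximal end of the femur before dissociation. Whether cartilage was left in the preparation was not tested. The marrow was ablated through a needle hole between the femoral condyles. The age of the mice is not given in the labels, and cells of several mice were pooled in replicate 1. The members' UMI totals had medians of 14141, 16095, 37057 and 18453, against 4793, 7012, 12944 and 12407 in the other mesenchymal cells (cells that a panel of mesenchymal genes separated from blood and endothelial cells).

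Some barcodes were present in both libraries of replicate 1, and this bears on the members. The barcodes of the ABL1 members held UMIs in CONT1 as well, with a median of 4.95% of their ABL total (4.49% to 5.77% over 13 members). Of their 11444 *Col2a1* UMIs, 599 more were counted under the same barcodes in CONT1, or 5.23%. In the opposite direction the median was 1.92% over 8 members of CONT1. In replicate 2 the medians were 0.119% for ABL members and 0.123% for CONT members. Barcodes under 300 UMIs in both replicate 1 libraries had a median of 2 UMIs in CONT1 and 1 in ABL1. In all, 5 barcodes were cells in both replicate 1 libraries, against 6.67 expected from the numbers of cells and possible barcodes. A single barcode was a member in both replicate 1 libraries, with 20015 UMIs and 1494 of *Col2a1* in ABL and 4629 UMIs and 77 of *Col2a1* in CONT. The 77 *Col2a1* UMIs were 5.15% of the 1494, against 5.23% over the other ABL1 members. The 4629 UMIs in CONT were 23.1% of the 20015 in ABL, against 4.49% to 5.77% for the other ABL1 members. That CONT cell was also the only member called a doublet and had no tdTomato UMI, so values for CONT1 are given with and without it where they move.

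**Figure D1:**
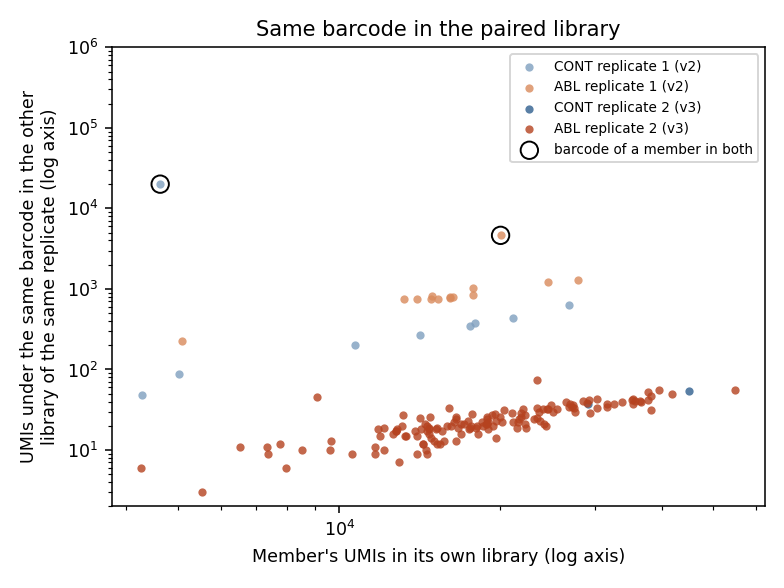
Each point is a member, with its UMIs in its own library on the x axis and the UMIs under the same barcode in the other library of the same replicate on the y axis (both log scales). The ABL1 members lie near 5% of their own total apart from the circled member, and the replicate 2 members near 0.1%. The circles mark the barcode that was a member in both libraries of replicate 1.

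Members were more frequent in ABL than in CONT in both replicates. They were 9 of 1182 mesenchymal cells in CONT1, or 0.761% (95% exact binomial interval 0.349% to 1.44%), and 14 of 644 in ABL1, or 2.17% (1.19% to 3.62%). Without the cell whose barcode was shared, CONT1 had 8 members, or 0.677%. In replicate 2 they were 2 of 1987 in CONT, or 0.101% (0.0122% to 0.363%), and 141 of 1777 in ABL, or 7.93% (6.72% to 9.29%). The intervals cover counting error only and overlapped in replicate 1 but not in replicate 2. Most of the ABL2 members were low in *Col2a1*. Members with at least 1% of UMIs from *Col2a1* were 9 of 1182 mesenchymal cells in CONT1 and 12 of 644 in ABL1. In replicate 2 they were 1 of 1987 in CONT and 37 of 1777 in ABL. Over libraries, 2 against 2 without regard to replicate cannot give a two-sided exact permutation p under 0.33. Keeping the 2 pairs leaves fewer arrangements still, so this difference was not tested. Because tdTomato+ cells of all types make up each library, more cells of 1 type and fewer of the others cannot be told apart. ABL2 held 84.9% of all members. It also stood apart in *Xist*, which is expressed from the inactive X chromosome of female cells. *Xist* had no UMI in its 141 members or its 1636 other mesenchymal cells, while 14 of 14 members of ABL1, 5 of 9 in CONT1 and 2 of 2 in CONT2 had one. In the other mesenchymal cells *Xist* was found in 71.8% of CONT2, 49.8% of CONT1 and 81.3% of ABL1, and transcripts of Y-linked genes in 30.3% of CONT1 and 15.1% of ABL1. The CONT and ABL libraries of a replicate, described as contralateral femurs of the same mice, thus differed in their mix of male and female cells. In both replicates, differences between animals and the ablation cannot be told apart.

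**Figure D2:**
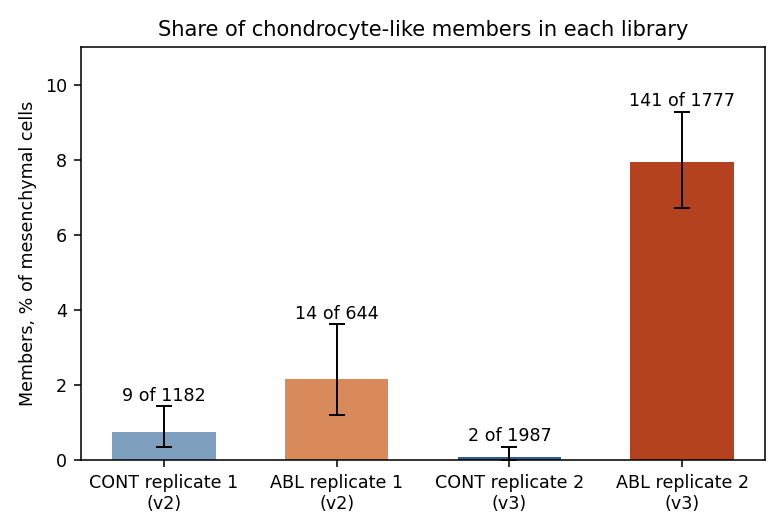
Bars give the members as a percent of the mesenchymal cells of each library, with 95% exact binomial intervals and the cell counts above. ABL2 stands at 7.93%, above the intervals of the 3 other libraries.

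Depth entered the choice of members. With every cell thinned to 2700 UMIs, 66 of 1777 mesenchymal cells of ABL2 met the rule, or 3.71%. Of 191 cells that met the cartilage part of the rule, 4 in ABL2 and 2 in ABL1 were left out for a *Ptprc* UMI, 17 in ABL2 for *Prg4* and 2 there for osteocalcin. Just inside the limits, 73 of the 141 ABL2 members had only 2 of the 6 genes beside *Acan*, with a median of 1156 CPM of *Acan* (CPM are UMIs per 1000000 UMIs) and 35890 CPM of *Col1a1*. Just outside were 197 cells of that library with *Acan* and only 1 of the 6 genes, with medians of 707 CPM of *Acan* and 23924 CPM of *Col1a1*. No such cell was found in the other libraries. In hematopoietic cells, which should lack it, *Acan* was at 1.39, 3.97, 0.201 and 3.36 CPM.

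The genes of the rule were more often found together in the members outside ABL2 than in those within it. The presence of these genes chose the cells, so it cannot decide whether the name chondrocyte-like holds. All 6 genes beside *Acan* reached 2 UMIs in 8 of 9 members of CONT1, 12 of 14 in ABL1, 1 of 2 in CONT2 and 25 of 141 in ABL2. *Col2a1*, the type II collagen gene (chromosome 15, 97975602 to 98004695, minus strand, GRCm38), was summed over the members at 54172 CPM in CONT1, 55309 in ABL1, 39655 in CONT2 and 14619 in ABL2. *Acan* (chromosome 7, 79053483 to 79115099, plus strand) was at 4533, 4083, 3076 and 2137 CPM in the same order. *Col9a1*, a type IX collagen chain that coats type II fibrils, was at 6317, 6122 and 5869 CPM in the first 3 libraries and 745 CPM in ABL2. In that library 108 of 141 members had a *Col2a1* UMI, 69 a *Col9a1* UMI, 42 a UMI of *Matn3* (matrilin 3) and 36 a UMI of *Lect1* (chondromodulin). The members of ABL2 are therefore called members, by the rule alone, and those high in *Col2a1* are described on their own.

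Type I collagen separated the members of ABL2 into distinct ranges. *Col1a1* (chromosome 11, 94936224 to 94953042, plus strand) was at 36574 CPM over these members, against 65.5 CPM in CONT1. In single members of ABL2 it ran from 0 to 159515 CPM with a median of 34745. Only 2 of 9 members of CONT1 had a *Col1a1* UMI at all. UMIs count molecules once from the 3' end, so the 2 collagens were compared within a cell without a length correction. Limits of 1% of UMIs for *Col2a1* and 0.1% for *Col1a1* were set after the values were seen. No member of ABL2 lay within 2-fold of the *Col1a1* limit, while 15 lay within 2-fold of the *Col2a1* limit, so the first is a gap and the second a cut through a range.

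By these limits 9 members of ABL2 had *Col2a1* alone, 28 had both collagens, 96 had *Col1a1* alone and 8 had neither. Over all 166 members, 31 had *Col2a1* alone, 28 had both, 98 had *Col1a1* alone and 9 had neither. By their collagens, the name chondrocyte-like thus held for a minority of the members. The 28 cells with both had a median of 3.54% of UMIs from *Col2a1* and 3.59% from *Col1a1*. None of the 25 members of the other libraries had both. The upper bounds of the 95% exact binomial intervals were 33.6% for 9 cells of CONT1, 23.2% for 14 of ABL1 and 84.2% for 2 of CONT2. Among those 25 cells, 22 had *Col2a1* alone: 9 of 9 in CONT1, 12 of 14 in ABL1 and 1 of 2 in CONT2. The cells with both collagens were deeper, with a median of 27145 UMIs against 14755 for *Col2a1* alone and 17855 for *Col1a1* alone. Scrublet, which scores cells against simulated doublets, called 0 of the 141 members doublets, and 14 of all cells of the library. Doublets of the v3 libraries may be missed, since it marked 0.551% of cells in ABL2 and 0.0417% in CONT2.

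**Figure D3:**
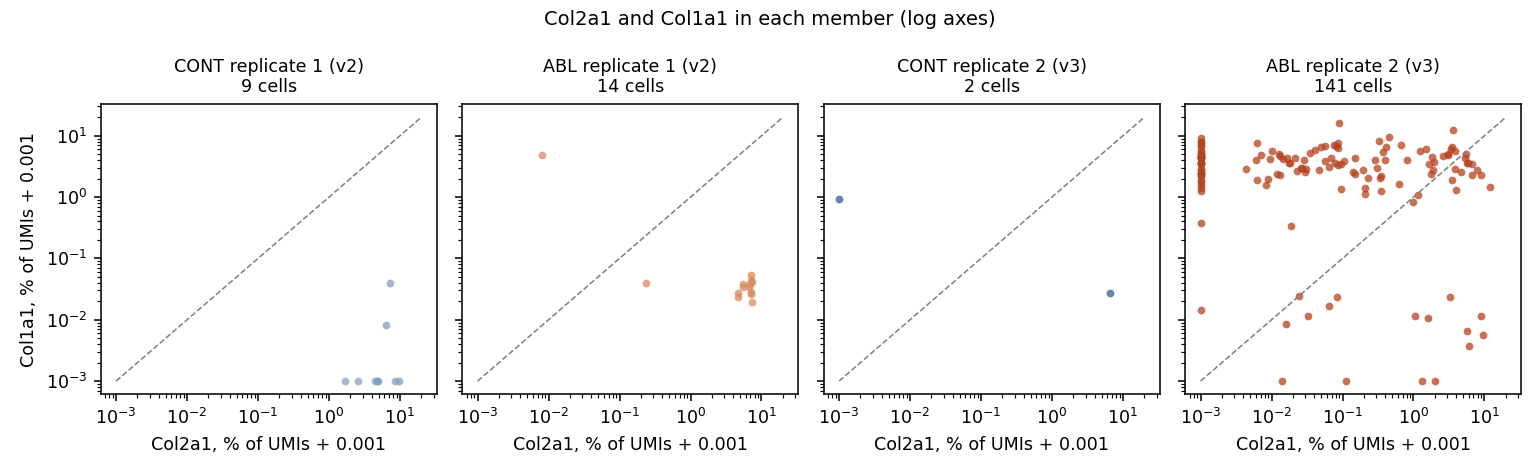
Each point is a member, with *Col2a1* on the x axis and *Col1a1* on the y axis as a percent of the cell's UMIs plus 0.001 (log axes), and the dashed line marks equal shares. Members of CONT1 and ABL1 cluster at high *Col2a1* and low *Col1a1*, while those of ABL2 form a band near 3.6% *Col1a1* that spans the whole range of *Col2a1*, with a separate set low in *Col1a1*.

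The members outside ABL2 carried a broad cartilage program. *Snorc*, a transmembrane proteoglycan of cartilage that the files list under 3110079O15Rik, was at 13674 CPM in CONT1, 15471 in ABL1 and 8285 in CONT2, against 1473 CPM in ABL2. *Col9a3* and *Col11a1*, chains of types IX and XI collagen, were at 9517 and 6604 CPM in CONT1 and at 8054 and 5763 CPM in ABL1. *Matn1*, a matrilin of cartilage, set these members apart most sharply. It was at 458 CPM in CONT1 (95% exact Poisson interval over UMIs 346 to 595), 445 CPM in ABL1 (363 to 539) and 391 CPM in CONT2 (262 to 562). In ABL2 it was at 0.352 CPM (0.00891 to 1.96), a single UMI in 1 of 141 members. It was found in 8 of 9 members of CONT1, 12 of 14 in ABL1 and 1 of 2 in CONT2. The summed intervals of the 3 libraries did not overlap that of ABL2, but Poisson intervals cover counting error only and not the spread between cells or libraries, and the CONT2 level rested on 1 cell. In the 9 cells of ABL2 with *Col2a1* alone, where *Col2a1* was at 49242 CPM, *Matn1* had no UMI (upper bound of the interval 24.7 CPM). *Epyc* (epiphycan), a small proteoglycan of growth plate cartilage, was at 417, 355 and 594 CPM in the first 3 libraries and 18.6 CPM in ABL2, with a UMI in 13 of 141 members.

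*Comp*, cartilage oligomeric matrix protein, did not follow this pattern. It was at 5826, 4348, 7515 and 7141 CPM, and 139 of 141 members of ABL2 had a UMI. *Fmod* (fibromodulin), which binds collagen fibrils, was highest in ABL2 at 2704 CPM, against 1301, 966 and 1795 CPM. Both genes are also expressed in tendon.

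**Figure D4:**
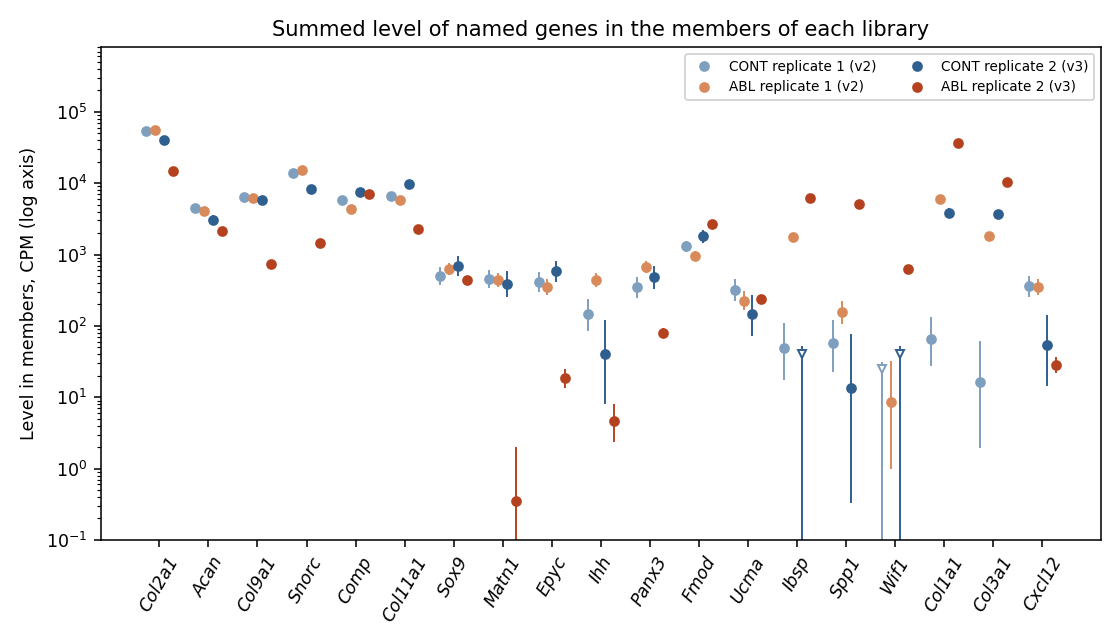
Points give the summed level of each gene in the members of each library in CPM (log axis) with 95% exact Poisson intervals, and open triangles mark 3 UMIs of the total for a gene with no UMI. The members of ABL2 lie below the 3 other libraries for *Matn1*, *Epyc* and *Col9a1* and above them for *Ibsp*, *Spp1*, *Wif1* and *Col1a1*.

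Among transcription factors, *Sox9*, the driver of the cartilage program, was at 507, 624, 702 and 445 CPM in the members of the 4 libraries. *Sox6*, which acts with *Sox9*, was at 57.3, 68.4, 67.5 and 45.7 CPM. *Sox5*, its close relative, was at 90.0, 42.7, 40.5 and 66.8 CPM. *Sox9* and *Sox6* each stayed within 2-fold between libraries. *Foxa3* was at 73.6, 81.2 and 67.5 CPM in the first 3 libraries and 12.0 CPM in ABL2. Within ABL2, *Sox9* was at 1483 CPM in the 9 cells with *Col2a1* alone, 382 CPM in those with both collagens and 364 CPM in those with *Col1a1* alone. *Mef2c*, a factor of hypertrophy, was at 327 (162 without 1 cell), 513, 216 and 178 CPM, and *Trps1* at 188, 248, 634 and 374 CPM. The other factors had no common order of libraries. *Runx3* was at 65.5, 64.1, 148 and 21.5 CPM, *Arid5a* at 24.5, 38.5, 40.5 and 20.4 CPM, and *Arid5b* at 8.18, 8.55, 54.0 and 37.6 CPM. *Barx2* was at 18.6 CPM and *Zfp219* at 3.52 CPM in ABL2, and *Nkx3-2* had no UMI in any member.

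Sulfation of aggrecan needs sulfate uptake, an activated sulfate donor and sulfotransferases, and genes of these steps were expressed. *Papss2*, which makes the sulfate donor, was at 532, 530, 418 and 190 CPM in the 4 libraries in the same order. *Chst11*, a chondroitin sulfotransferase, was at 524, 564, 405 and 86.2 CPM, and *Slc26a2*, the sulfate transporter, at 311, 201, 175 and 134 CPM. *Ugdh*, which makes a sugar precursor of the side chains, was at 188, 167, 229 and 156 CPM. All 4 genes were lowest in ABL2. Within that library *Chst11* was at 711 CPM in the cells with *Col2a1* alone and 72.8 CPM in those with both collagens.

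Signals and products of the growth plate differed among the libraries. *Pth1r*, the receptor for parathyroid hormone related protein, was at 1211, 1860, 2429 and 712 CPM. In CONT2 it was at 4005 CPM in the member with *Col2a1* alone and had no UMI in the other member. The CONT2 levels of several other genes came from this 1 cell too. Among them were *Col2a1*, *Col9a1*, *Snorc*, *Epyc*, *Papss2*, *Chst11*, *Panx3* and *Runx3*. *Ptch1*, the hedgehog receptor and target, was at 221, 231, 94.4 and 146 CPM. *Ihh* (Indian hedgehog) was at 147 CPM in CONT1 (87.3 to 233), 445 in ABL1 (363 to 539) and 40.5 in CONT2 (8.35 to 118), and at 4.57 CPM in ABL2 (2.43 to 7.82). *Ihh* UMIs were found in 5 of 9, 6 of 14, 1 of 2 and 3 of 141 members. *Panx3*, a channel of prehypertrophic chondrocytes and osteoblasts, was at 352, 663, 486 and 79.1 CPM. *Col10a1*, the collagen of hypertrophic cartilage, was at 4501 CPM in ABL1 and at 221, 0 and 48.9 CPM in CONT1, CONT2 and ABL2. This level rested on 2 of 14 cells, at 30999 and 31716 CPM, and was 74.7 CPM without them. In CONT1, *Col10a1* fell to 9.56 CPM without 1 cell that held 26 of the 27 UMIs. *Cytl1* (cytokine-like 1) was likewise at 727 CPM in ABL1 and at 89.6 CPM without these 2 cells.

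The bone matrix genes *Ibsp* and *Spp1* were highest in the members of ABL2, while *Alpl*, the alkaline phosphatase of mineralizing cells, was not. *Ibsp* (bone sialoprotein) was at 6213 CPM in ABL2, 49.1 CPM in CONT1 and 1740 CPM in ABL1, and had no UMI in CONT2. In ABL1, 456 CPM was left without the 1 member that had *Col1a1* alone, a cell with 2 *Col2a1* UMIs of 27970. *Spp1* (osteopontin) was at 5072 CPM in ABL2, against 57.3, 158 and 13.5 CPM in CONT1, ABL1 and CONT2. The genes were unevenly spread in ABL2: *Ibsp* had a median of 395 CPM over cells and a highest value of 78607 CPM. The 28 cells with both collagens had the highest summed *Ibsp* of the 4 ranges, at 13020 CPM, with UMIs in 24 cells, against 3818 CPM for *Col1a1* alone and 4327 CPM for *Col2a1* alone. *Spp1* was at 9399, 3327 and 1704 CPM in the same order and at 9024 CPM in the 8 cells with neither. Single cells decided some of these sums. In the range with *Col2a1* alone, 1 of the 9 cells held 574 of 645 *Ibsp* UMIs and 1 held 244 of 254 *Spp1* UMIs, and the levels without that cell were 627 and 88.2 CPM. *Spp1* in the 8 cells with neither was at 5687 CPM without the highest cell. *Alpl* was at 597, 846, 1133 and 633 CPM in the members of the 4 libraries. Within ABL2 it was at 1055 CPM in the cells with both collagens, 477 with *Col1a1* alone and 778 with *Col2a1* alone (327 without 1 cell). *Smpd3*, which is required for mineralization, was at 532, 744, 553 and 214 CPM in the members of the 4 libraries.

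The ranges within ABL2 also differed in other matrix genes. The 96 cells with *Col1a1* alone had *Col3a1*, the collagen of loose connective tissue, at 14034 CPM, against 4476 CPM with both collagens and 215 CPM with *Col2a1* alone. *Aspn* (asporin) was at 955, 104 and 0 CPM in that order and *Postn* (periostin), a matricellular protein of periosteum and ligament, at 1259, 178 and 0 CPM. *Scx* (scleraxis), a factor of tendon progenitors, was at 138 CPM with UMIs in 61 of 96 cells, at 32.5 CPM with both collagens, and had no UMI in the 9 cells with *Col2a1* alone. The 9 cells with *Col2a1* alone had *Snorc* at 10358 CPM and *Ucma* (a matrix protein of unfused cartilage) at 852 CPM. *Cytl1* was at 704 CPM there, but at 222 CPM without 1 cell that held 74 of its 105 UMIs. The 8 cells with neither collagen had *Dcn* (decorin) at 35433 CPM, *Cilp* (cartilage intermediate layer protein) at 4201 CPM, *Clu* (clusterin) at 5863 CPM and *Prg4*, which the rule limits, at 5927 CPM. In the 9 cells with *Col2a1* alone, *Cilp* was at 658 CPM from 1 cell.

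In ABL2, *Col2a1* followed some cartilage genes from cell to cell and others little or not. Across its 141 members, which share a library and were chosen for some of these genes, Spearman's rho between the *Col2a1* share and the *Col11a2* share was 0.82, and it was 0.79 with *Col9a3* and 0.75 with *Snorc*. It was 0.28 with *Sox9*, 0.25 with *Comp* and *Chad* and -0.22 with *Fmod*. It was -0.62 with *Col3a1* and -0.13 with *Col1a1*. It was 0.38 with *Epyc*, 0.27 with *Cytl1* and 0.12 with *Matn1*, which had a UMI in only 13, 23 and 1 of the 141 members. With so many ties at 0 these values say little of whether *Epyc*, *Cytl1* and *Matn1* followed *Col2a1*. The rho of the *Col2a1* share with the UMI total was 0.29, as high as or higher than that with several of these genes.

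The members were then set beside the other mesenchymal cells of the same library. This contrast is the one that chose them, so counts and ratios are given without a test. A gene was called higher or lower when it differed by at least 2-fold with non-overlapping 95% Poisson intervals in both libraries with at least 10 members, which were ABL1 and ABL2. Of 4552 genes with at least 20 CPM averaged over both groups in both libraries, 96 were higher (2.11%), 264 were lower (5.80%) and 12 differed in opposite directions (0.264%). Over all these genes the median log2 ratio was -0.42 in ABL1 and -0.13 in ABL2. Of the 17 cartilage matrix genes measured, among 22 listed, 15 were higher and 0 lower, with median log2 ratios of 5.90 and 2.62. The 2 others were *Cytl1*, with log2 ratios of 7.76 and -0.00, and *Prelp*, a proteoglycan of connective tissues, with 2.73 and 0.71. Sulfation and glycosaminoglycan genes were higher in 4 of 10 measured, and the 12 chondrogenic transcription factors in 2 of 7 measured, *Sox9* and *Sox6*, with *Arid5b* lower. Growth plate signalling genes were higher in 3 of 9 measured (*Pth1r*, *Ptch1* and *Frzb*) and lower in 1, *Grem1*, a BMP antagonist of marrow stroma. Of 11 hypertrophy genes measured, 2 were higher, *Col10a1* and *Panx3*, and 1, *Vegfa*, was lower. The *Col10a1* call rested on few cells, with a UMI in 6 of 14 members of ABL1 and 6 of 141 of ABL2. The highest ABL2 member was at 1791 CPM.

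Genes of reticular marrow stroma were lower in the members than in the other mesenchymal cells. Those other cells included the reticular cells, gated by *Cxcl12*, which were 424 of 630 in ABL1 and 314 of 1636 in ABL2. Lower *Cxcl12* in the members was therefore close to fixed by the comparison. Of 11 reticular genes measured, 10 were lower and 0 higher, with median log2 ratios of -4.47 and -4.70. *Cxcl12*, the chemokine of reticular cells and the gene whose regulatory sequence drives the recombinase, was at 351 CPM in the members and 9603 CPM in other mesenchymal cells of ABL1, and at 28.1 and 2010 CPM in ABL2. *Hp* (haptoglobin) was at 107 and 1642 CPM in ABL1 and at 5.63 and 424 CPM in ABL2. *Cxcl14* was at 68.4 and 683 CPM, and at 137 and 366 CPM. *Foxc1*, a transcription factor of reticular cells, was at 89.8 and 217 CPM, and at 77.7 and 95.3 CPM. In hematopoietic cells *Cxcl12* was at 816, 618, 1063 and 207 CPM. The members' 360, 351, 54.0 and 28.1 CPM lay below that background in every library. After thinning each cell to 2700 UMIs, a *Cxcl12* UMI was found in 10 of 141 members of ABL2, or 7.09%, and in 32 of 436 hematopoietic cells, or 7.34%. In ABL1 these were 9 of 14, or 64.3%, and 504 of 778, or 64.8%. In CONT1 the members were above the hematopoietic cells by this measure, at 6 of 9, or 66.7%, against 1357 of 2220, or 61.1%. In CONT2 they were 0 of 2 against 86 of 268, or 32.1%.

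The reporter was nonetheless present in most members. The tdTomato transcript was at 1211, 1518, 229 and 1214 CPM in the members of the 4 libraries, against 163, 159, 118 and 367 CPM in hematopoietic cells. At 2700 UMIs per cell it was found in 7 of 9, 14 of 14, 1 of 2 and 130 of 141 members. The hematopoietic shares were 22.7%, 23.4%, 13.8% and 43.3%. In CONT2, the member with *Col2a1* alone had 1 tdTomato UMI of 44940, and the other member had 16 of 29174. In CONT1, 2 of 9 members had none, of which 1 was the cell with the shared barcode.

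*Spp1*, *Wif1*, *Clu* and *Rbp4* were among the 12 genes that went in opposite directions in the 2 ABL libraries. *Spp1* was below other mesenchymal cells in ABL1 (158 against 3935 CPM, log2 ratio -4.64) and above them in ABL2 (5072 against 2141 CPM, 1.24). *Wif1*, a secreted Wnt inhibitor, had log2 ratios of -4.24 and 2.42, *Clu* of -2.76 and 1.07, and *Rbp4*, a retinol carrier, of -1.37 and 3.07. The *Clu* call in ABL2 rested on the 8 members with neither collagen: without them *Clu* was at 471 CPM against 309 CPM, 1.52-fold and under the 2-fold limit. *Spp1*, *Wif1*, *Rbp4* and *Creb3l1* kept log2 ratios of 1.21, 2.41, 3.11 and 1.16 in ABL2 without these 8 cells. *Col1a1* had log2 ratios of -1.54 and 0.95, and *Ibsp* of -0.93 and 2.15. Counted in 1 library at a time, 6.46% of the 4552 genes were higher and 19.0% lower in ABL1, and 3.19% were higher and 7.67% lower in ABL2. Of 9 osteoblast genes measured, 1 was higher and 5 lower in ABL1, and 5 were higher and 2 lower in ABL2. Of 17 fibrous matrix genes, 2 were higher and 8 lower in ABL1, and 2 were higher and 1 lower in ABL2. The tendon and joint lining genes had median log2 ratios of -2.63 in ABL1 and -1.16 in ABL2, with 3 of 5 measured lower in each. These 5 tendon and joint lining genes measured had 0 called higher and 1 lower in both libraries. *Thbs4*, a thrombospondin of tendon, was at 4021 CPM in CONT2, all from its member with *Col1a1* alone, at 176 CPM in ABL2, and had no UMI in the members of CONT1 and ABL1. *Tppp3*, a marker of the tendon sheath, was at 65.5, 42.7, 216 and 152 CPM. Both fibrous and osteoblast contents of ABL1 rested in part on 1 member: without the cell with *Col1a1* alone, its *Col1a1* fell from 6053 to 330 CPM and its *Col3a1* from 1813 to 63.1 CPM.

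**Figure D5:**
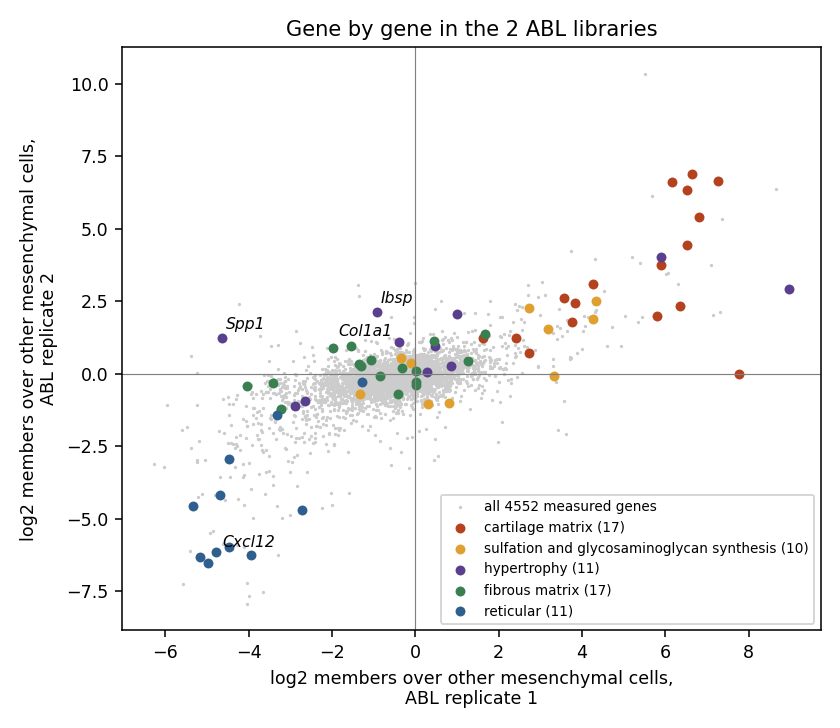
Each point is a gene, with the log2 ratio of members to other mesenchymal cells in ABL1 on the x axis and in ABL2 on the y axis, and colours mark 5 gene lists with the number measured. Cartilage matrix genes lie at the upper right apart from *Cytl1*, reticular genes at the lower left, and *Spp1*, *Ibsp* and *Col1a1* at the upper left.

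Outside the lists, the genes with the highest ratios in ABL2 included *Fxyd2*, a regulator of the sodium pump, with log2 ratios of 7.36 in ABL1 and 5.34 in ABL2. *Susd5* had ratios of 6.02 and 3.46, *Tnfrsf11b* (osteoprotegerin, an inhibitor of osteoclast formation) of 2.70 and 3.06, *Cox4i2* of 2.69 and 2.72, and *Cd24a* of 3.12 and 2.71. *Wwp2*, a ubiquitin ligase whose gene hosts the cartilage microRNA miR-140, had ratios of 3.64 and 2.67. *Npy* and *Moxd1* had no UMI in the members of ABL1, CONT1 and CONT2 and were at 110 and 98.5 CPM in ABL2, where 1 cell held 141 of the 313 *Npy* UMIs. *Omd* (osteomodulin) was at 528 CPM there and at 64.1 CPM in ABL1. The lowest ratios were those of *Clic5*, *Cyp1b1*, *Ccl7*, *Ccl2* and *Apoe*. *Clic5* had no UMI in the members of any library. *Apoe* was at 28.5 CPM in members and 830 CPM in other mesenchymal cells of ABL2, and at 393 and 3155 CPM in ABL1. The chemokine *Ccl2* was at 2.81 and 178 CPM, and at 17.1 and 298 CPM.

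The members of ABL2 were set beside the nearest other gates of that library. *Comp* was at 7141 CPM in the members, 2355 in mesenchymal cells of no gate, 518 in *Prg4*-high cells and 1192 in osteocalcin-high cells. *Col1a1* was at 36574, 21168, 2098 and 102778 CPM in the same order, and *Ibsp* at 6213, 1082, 49.8 and 10633 CPM. *Cytl1* was highest in *Prg4*-high cells, at 535 CPM against 81.3 CPM in the members. With the rule's genes left out of a principal component space, 50.3% of the 20 nearest neighbours of a member were members, who were 7.93% of the mesenchymal cells, and 44.8% were mesenchymal cells of no gate, who were 61.1%. For the 30 members with more *Col2a1* than *Col1a1* 77.0% of neighbours were members, and for the 111 others 43.1%. None of the neighbours in ABL2 were reticular cells, who were 17.7% of its mesenchymal cells. In ABL1, 49.6% of neighbours were members, who were 2.17% of the cells, and 3.21% were reticular cells, who were 65.8%. These shares describe the cells and come from genes that go with the rule's genes.

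Other processes varied between libraries. The cycling genes *Ube2c*, *Ccnb2*, *Birc5* and *Top2a* were at 336, 311, 172 and 139 CPM in CONT1, at 94.0, 29.9, 81.2 and 72.7 CPM in ABL1 and at 47.1, 12.0, 27.4 and 23.2 CPM in ABL2. In CONT2 *Ccnb2* was at 13.5 CPM and the 3 others had no UMI. *Top2a* UMIs were found in 2 of 9, 2 of 14 and 7 of 141 members, with 16 of the 17 *Top2a* UMIs of CONT1 in 1 cell. With the highest cell of CONT1 left out for each gene, *Ube2c*, *Ccnb2*, *Birc5* and *Top2a* were at 73.4, 41.9, 31.5 and 10.5 CPM. No call was made in both libraries for the 6 cycling genes measured. The glycolysis genes *Ldha* and *Eno1* were at 900 and 769 CPM in CONT1, 244 and 192 in ABL1, 580 and 499 in CONT2 and 720 and 693 in ABL2. *P4ha1*, a collagen prolyl hydroxylase, was at 115, 85.5, 283 and 308 CPM and *Aldoa* at 319, 184, 256 and 530 CPM. Of 10 glycolysis and hypoxia genes measured, 0 were higher and 1 was lower. Of 18 genes of collagen secretion measured, 0 were higher and 0 lower in both libraries, and *Creb3l1*, a transcription factor of secretion, went in opposite directions, with log2 ratios of -1.07 in ABL1 and 1.13 in ABL2. *Serpinh1*, the collagen chaperone, was at 1595 and 1670 CPM in members and other cells of ABL1, and at 3020 and 1910 CPM in ABL2. *Plod2* was at 522 and 312 CPM, and at 883 and 477 CPM, in the same order. *P4hb* was at 564 and 415 CPM, and at 685 and 443 CPM. *Hspa5*, a chaperone of the unfolded protein response, was at 282 and 832 CPM, and at 794 and 928 CPM.

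Among matrix-degrading enzymes and their inhibitors, *Timp3* was the 1 of 9 measured that was higher, at 556 against 117 CPM in ABL1 and 304 against 119 CPM in ABL2. *Adamts1* was the 1 that was lower. *Timp1* was at 458, 453, 526 and 1350 CPM in the members of the 4 libraries, *Timp2* at 229, 380, 337 and 915 CPM and *Mmp2* at 32.7, 295, 162 and 657 CPM, each highest in ABL2. *Fn1* (fibronectin) was at 2349, 983, 6072 and 4708 CPM, and within ABL2 it was at 21032 CPM in the cells with *Col2a1* alone. Without the highest cell, *Fn1* was at 841 CPM in CONT1 and 8895 CPM in that range of ABL2. *Col1a2*, the partner chain of *Col1a1*, was at 188, 3151, 3157 and 26488 CPM. In ABL1 it was at 481 CPM without the member with *Col1a1* alone, and the 2 members of CONT2 were at 6650 and 890 CPM. *Fos* and *Junb*, which rise when tissue is dissociated, were at 810 and 900 CPM in CONT1, 291 and 329 in ABL1, 216 and 243 in CONT2 and 985 and 460 in ABL2. In CONT1 they were at 197 and 547 CPM without the highest cell for each. *Fosb* was at 516, 624, 202 and 557 CPM and *Hsp90aa1* at 319, 278, 391 and 326 CPM. Of 15 dissociation genes measured, 0 were higher and 3 were lower in the members, *Dusp1*, *Zfp36* and *Nr4a1*.

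RNA of other cell types was present to different extents. The 20 hematopoietic genes found in the files summed to 15040 CPM in the members of CONT1 and 9465 in ABL1, led by *Hbb-bs* at 4689 and 2467 CPM, and to 283 and 161 CPM in CONT2 and ABL2. In other mesenchymal cells of the same libraries they summed to 20419, 11023, 525 and 655 CPM. *S100a8* was at 2856 CPM in the members and 3676 CPM in other mesenchymal cells of CONT1, *S100a9* at 2299 and 3038 CPM, and *Hba-a1* at 2201 and 3006 CPM. The summed level in the members was below that of the other mesenchymal cells in each of the 4 libraries. *Ptprc* was at 0 by the rule. The 8 endothelial genes summed to 24.5, 0, 0 and 22.2 CPM, led by *Cldn5* at 16.4 CPM in CONT1 and 6.33 CPM in ABL2, with *Egfl7* at 8.18 and 3.52 CPM there. *Esam* had no UMI in the first 3 libraries and 2.81 CPM in ABL2, and *Cdh5* had no UMI in the first 3 libraries and 3.87 CPM in ABL2. Droplets of at most 300 UMIs, taken as empty, held *Col2a1* at 238 CPM in CONT1, 835 in ABL1, 50.7 in CONT2 and 2516 in ABL2. In ABL2, *Col2a1* was at 14.4 CPM in hematopoietic and 30.5 CPM in reticular cells, both below the empty droplets. With the profile of the empty droplets subtracted, 97 genes were higher and 274 lower in both ABL libraries, against 96 and 264.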

How the data were processed

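Cells of Cxcl12-iCreER; R26R-tdTomato femurs were profiled in 4 libraries (CONT and ABL, replicates 1 and 2). The authors aligned reads with Cell Ranger to mm10 with reporter sequences added, and deposited raw UMI counts for all barcodes; the headers of the v3 files name version 3.0.0. The authors' counts were used without normalization. Barcodes with at least 500 genes, at most 20% mitochondrial and at least 2700 UMIs (v2), or at least 1000 genes, 15% and 4000 UMIs (v3), were taken as cells, following the study's filter with a UMI minimum added. Members, cell gates and gene lists were chosen with earlier results of these data known. Mesenchymal cells had at least 1% of UMIs from a mesenchymal panel, more than from a hematopoietic one, and fewer than 4 endothelial UMIs. Reticular cells had *Cxcl12* at 0.5% or more, *Prg4*-high and osteocalcin-high cells at least 1% of these genes. In all, 5590 of 9795 cells were mesenchymal. No doublets were removed; Scrublet calls (scanpy 1.11.5) were an alternative.

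Counts were summed per library and group and given as CPM with 95% exact Poisson intervals, and shares with 95% exact binomial intervals (scipy). The planned ABL against CONT test needed 10 members in every library and was not made, as CONT1 and CONT2 had 9 and 2. Fold ratios against a group at 0 used a floor of 3 counts. The ratio and call steps were tested on simulated data. Genes named are those of the rule, the 4 highest of each list by the mean of the 4 libraries, all listed transcription factors, and outside the lists the 10 highest and 5 lowest ratios in ABL2 at 50 CPM or more; others were chosen after their values were seen. Coordinates are from GENCODE M21 on GRCm38, and *Ighm* and *Igkc* of the hematopoietic list were not matched by symbol. Library totals over all barcodes were 44784072 UMIs (CONT1), 22889380 (ABL1), 40486876 (CONT2) and 41536563 (ABL2), of which cells held 56.6%, 58.9%, 83.5% and 85.4%.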

Additional observations from a re-analysis of the deposited data

Results flagged for a closer look

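Several genes differed in direction between the 2 ABL libraries, members against other mesenchymal cells of the same library. The log2 ratio in ABL2 was 1.24 for *Spp1*, 2.42 for *Wif1*, 1.07 for *Clu*, 1.13 for *Creb3l1* and 3.07 for *Rbp4*, and each was below 0 in ABL1. Without the 8 ABL2 members with neither collagen, the *Clu* ratio was 0.61, under the 2-fold limit. With 1 library on each side, the difference was not tested.

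UMIs under the barcodes of 13 ABL1 members that were not cells in CONT1 were also counted in CONT1, at a median of 4.95% of the members' own totals, against 0.119% for ABL members in replicate 2. The other ABL1 member had a barcode that was also a member in CONT1.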

How the results depend on the processing

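No paired analysis was possible because neither the shares nor the levels come from a test: 2 pairs are too few for an exact test of the shares to pass a threshold, and the levels rested on 9 and 2 members in CONT1 and CONT2. Within replicates, the share of members was 2.86 times as high in ABL1 as in CONT1 and 78.8 times as high in ABL2 as in CONT2. Of the 141 members of ABL2, only 37 had at least 1% of UMIs from *Col2a1*. The alternatives planned for the ABL against CONT test were not run.

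The share of members in ABL2 was 7.93%. It was 3.71% with every cell thinned to 2700 UMIs, 6.48% at 3 UMIs for every gene of the rule and 14.6% at 1 UMI. Without the filter on low values, 197 genes were higher and 466 lower in both ABL libraries. Calls numbered 182 higher and 418 lower without replicate 1, and 418 higher and 1026 lower without replicate 2 (5192 and 5403 genes measured against 4552), where both the level filter and the call rested on 1 library. The other 37 recomputed shares and counts stayed within their intervals or within 1.5 times. Among these, the share in CONT2 fell from 0.101% with 2 members to 0.0503% with 1 member, both after thinning and at 3 UMIs. It stayed within a wide interval. The median log2 ratio of the cartilage matrix genes ran from 5.89 to 6.08 in ABL1 and from 2.54 to 2.79 in ABL2 over the alternatives. Leaving out the CONT1 cell with the shared barcode, single ABL libraries, the ABL1 member with *Col1a1* alone, the 2 highest in *Col10a1*, the ABL2 members with neither collagen and each member in turn was chosen after the data were seen. Precision is limited by the 9, 14 and 2 members outside ABL2.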
